A study of Mus musculus with 4 samples.

Results

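Dying cells in injured tissue are cleared by phagocytes in a process called efferocytosis. Phagocytes recognise phosphatidylserine, a lipid that a dying cell exposes on its surface, either directly or through secreted bridging proteins that bind the lipid on one side and a receptor on the other. In injured muscle, neutrophils and fibre debris are taken up first by monocytes that have entered from blood and then by the macrophages they become. The transcripts described here encode 5 uptake receptors (Mertk, Axl, Timd4, Itgav and Lrp1) and 3 bridging proteins (Gas6, Pros1 and Mfge8). These 8 genes were taken by symbol, and all 8 were found among the 27998 genes of the count matrices. On GRCm38 (mm10), the receptors lie at chr2:128698956-128802894 (Mertk), chr7:25757273-25788705 (Axl), chr11:46810800-46844332 (Timd4), chr2:83724397-83806916 (Itgav) and chr10:127538161-127621148 (Lrp1). The bridging proteins lie at chr8:13465374-13494490 (Gas6), chr16:62854307-62929346 (Pros1) and chr7:79133768-79149060 (Mfge8), and all 8 are annotated as protein-coding.

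The measurements were single-cell RNA-seq counts of unique molecular identifiers (UMIs, each standing for 1 captured transcript) from leukocytes of the tibialis anterior muscle after cardiotoxin, a snake toxin that kills muscle fibres. Control mice were Bach1 fl/fl littermates, and KO mice were Bach1 fl/fl carrying Lyz2-Cre, which removes exon 4 of Bach1, part of the DNA-binding domain of this transcriptional repressor, in cells that use the Lyz2 promoter (monocytes, macrophages and neutrophils). All groups were male, 8 to 12 weeks old, on a C57BL/6 background, injured, and enriched for CD45+ cells on magnetic beads. Each genotype was sampled at 2 and 4 days post-injury (dpi2 and dpi4), with 1 library per genotype and day.

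With 1 library per group there is no replicate error and no test. A level is given as counts per 1000000 UMIs of all cells of a type in a library (CPM). Each 95% interval (exact Poisson for a level, exact conditional binomial for a ratio) covers counting error only, and differences between mice, dissections or library preparations are not in it. A ratio was called past the size rule when it was at least 2-fold, its interval left out 1, and the 2 libraries together held at least 50 UMIs of the gene. After filters, 17011 cells were kept, between 3433 and 5721 per library, with total counts of 57010520 to 80228489 UMIs per library over all barcodes and a median of 10702 to 15157 UMIs per kept cell. Any pair of libraries shared at most 0.335% of the smaller one's barcodes. The cut on mitochondrial reads took 8.10% and 6.61% of barcodes at dpi2 (control, KO) against 15.4% and 19.9% at dpi4. Lyz2, which the Cre insertion disrupts, followed the labels, at 8146 and 18351 CPM in control macrophages and 13.2 and 24.4 CPM in KO macrophages (dpi2, dpi4). Loss of the Bach1 exon and loss of Lyz2 therefore cannot be told apart in these libraries. Bach1 itself did not follow the labels, with 123, 143, 214 and 227 CPM in macrophages of control dpi2, KO dpi2, control dpi4 and KO dpi4. The reads were taken from the 3′ end of transcripts, so they do not check the removal of exon 4.

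The promoters of 4 genes are shown because their genes carry the main patterns. Axl and Mfge8 were the members past the size rule between dpi2 and dpi4 in macrophages of both genotypes, and Gas6 and Mertk, a ligand and its receptor, had the most alike levels across cell types among pairs of 1 bridging protein and 1 receptor. Each sequence is the 250 bases before the RefSeq transcription start in GRCm38.p6, written 5′ to 3′ on the gene's strand, with GC boxes (GGGCGG, or CCGCCC on the other strand) in capitals. The regions are chr2:128698665-128698914 (Mertk, plus strand), chr7:25788734-25788983 (Axl, minus strand), chr8:13494536-13494785 (Gas6, minus strand) and chr7:79149061-79149310 (Mfge8, minus strand).
Mertk: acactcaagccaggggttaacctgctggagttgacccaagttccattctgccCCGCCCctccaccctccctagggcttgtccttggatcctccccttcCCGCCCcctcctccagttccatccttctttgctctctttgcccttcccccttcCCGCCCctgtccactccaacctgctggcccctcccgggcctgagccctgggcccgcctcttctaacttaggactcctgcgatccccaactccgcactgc
Axl: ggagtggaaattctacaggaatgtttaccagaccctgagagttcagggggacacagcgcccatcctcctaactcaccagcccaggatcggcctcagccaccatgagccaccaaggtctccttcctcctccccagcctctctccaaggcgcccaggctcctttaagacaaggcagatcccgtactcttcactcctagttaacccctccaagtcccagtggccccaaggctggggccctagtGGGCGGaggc
Gas6: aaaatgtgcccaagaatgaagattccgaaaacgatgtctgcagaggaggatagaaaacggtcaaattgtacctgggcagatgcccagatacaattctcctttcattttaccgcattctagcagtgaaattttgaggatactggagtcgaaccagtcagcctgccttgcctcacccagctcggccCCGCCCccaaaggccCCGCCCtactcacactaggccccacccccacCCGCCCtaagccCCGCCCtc
Mfge8: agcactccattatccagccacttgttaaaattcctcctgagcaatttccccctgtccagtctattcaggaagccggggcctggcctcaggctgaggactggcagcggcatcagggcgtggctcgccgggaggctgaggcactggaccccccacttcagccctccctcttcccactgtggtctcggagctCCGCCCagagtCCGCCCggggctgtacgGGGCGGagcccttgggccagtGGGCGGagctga

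GC boxes stood in the same window of 6 of the 8 members, with 3 in Mertk, 1 in Axl, 4 in Gas6, 4 in Mfge8, 1 in Lrp1 and 5 in Pros1, and in 32.7% of all 32851 RefSeq promoters of this length. The GC content of the 4 windows was 63.6%, 60.0%, 54.8% and 65.2% in the order printed, against a median of 52.4% over all promoters. CCAAT was found in Timd4 alone among the members and in 33.8% of all promoters, and the PU.1 motif GAGGAAGT in Itgav alone and in 2.44% of all. The AP-1 core TGANTCA, which the binding element of BACH1 contains, was in none of the 8 windows and in 6.75% of all promoters. All motifs were sought on both strands. A match is a run of letters and not a measured site, and an absent match says nothing of binding elsewhere.

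In the leukocytes, Mertk and Gas6 were macrophage transcripts, Axl was shared by monocytes, dendritic cells and macrophages, and Timd4 was almost confined to dendritic cells. The order of cell types is described for types with at least 50 cells in a library, with the range over 3 or 4 libraries, which differ in genotype and day. Mertk, the receptor tyrosine kinase that binds Gas6 and Pros1, ran from 76.4 to 206 CPM in macrophages, from 26.9 to 41.5 in monocytes and from 1.89 to 13.7 in dendritic cells. Those ranges did not overlap. Neutrophils (1.30 to 8.07 CPM) and T and NK cells (at most 1.80 CPM) came next, and the ranges of dendritic cells, neutrophils and lymphocytes overlapped in turn. Within each library, macrophages held 2.84 times the Mertk level of monocytes in control dpi2, 2.86 times in KO dpi2, 1.86 times in control dpi4 and 5.76 times in KO dpi4, the last pair against monocyte groups of 45 and 71 cells.

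Axl, a kinase of the same family that binds Gas6, had no order among the myeloid types. It ran from 30.9 to 187 CPM in monocytes, from 36.2 to 147 in dendritic cells and from 10.5 to 193 in macrophages. Macrophages stood below both other types at dpi2 and no longer did at dpi4, where they stood above them beyond counting error against KO dendritic cells alone. In control dpi2 the macrophage level was 0.227 times (0.207 to 0.248) that of monocytes and 0.264 times (0.227 to 0.307) that of dendritic cells, and in KO dpi2 it was 0.341 times (0.294 to 0.395) and 0.291 times (0.239 to 0.356). At dpi4 the macrophage level was 0.971 times (0.756 to 1.27) that of monocytes and 1.04 times (0.958 to 1.13) that of dendritic cells in control, and 1.03 times (0.861 to 1.25) and 1.31 times (1.22 to 1.42) in KO. Axl in T and NK cells stayed at or under 11.3 CPM and in neutrophils at or under 5.38.

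Timd4, which encodes TIM-4, a receptor that binds phosphatidylserine directly and marks some resident macrophages, was nearly absent from these macrophages. It had 172 UMIs in 65 of 17011 kept cells, and 140 of them (81.4%) were in 44 of 1334 dendritic cells. Macrophages held 28 UMIs (16.3%) in 17 of 8644 cells, which is 0.133, 0.0673, 0.198 and 0.217 CPM in control dpi2, KO dpi2, control dpi4 and KO dpi4. Timd4 is known from dendritic cells as well as from resident macrophages. In dendritic cells its levels were 2.43, 9.11, 12.9 and 6.19 CPM in the same order, all above the highest value of any other type with 50 cells in a library (1.62 CPM, from 1 UMI in KO dpi4 monocytes). Most of those UMIs lay in the cluster led by Cd209a, a marker of type 2 dendritic cells, with 5, 30, 48 and 24 UMIs, while the Xcr1 cluster, type 1 in its markers, had 0, 3, 1 and 2. The small cluster of mature dendritic cells (24, 25, 43 and 58 cells) had 4, 5, 14 and 4 UMIs, which is 17.1, 11.3, 29.5 and 7.93 CPM against 1.66, 8.96, 13 and 6.94 CPM in the Cd209a cluster, with intervals that overlapped except in control dpi2.

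Itgav encodes the alpha v integrin chain that binds Mfge8, and Lrp1 a large scavenger receptor that takes up calreticulin-coated cells. Itgav ran from 149 to 212 CPM in macrophages and from 99.1 to 131 in monocytes, without overlap among groups of at least 50 cells, and from 32.6 to 68.5 CPM over dendritic cells, neutrophils and T and NK cells. The 45 control dpi4 monocytes, under that limit, had 169 CPM (76 UMIs), within the macrophage range. In that library macrophages held 0.879 times (0.702 to 1.12) the Itgav level of monocytes. Lrp1 ran from 402 to 652 CPM in macrophages and from 328 to 440.4 in monocytes, which overlapped, from 67.9 to 149.9 in dendritic cells and from 8.57 to 14.4 in T and NK cells. Both receptors were thus present throughout the mononuclear phagocytes, with no more than a 2-fold spread between the libraries in macrophages.

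Gas6, the bridging ligand of Mertk and Axl, was the bridging protein with the steepest gradient between macrophages and monocytes among groups of at least 50 cells. It ran from 130.3 to 281 CPM in macrophages and from 9.62 to 30.9 in monocytes, with no overlap, and stayed at or under 13.5 in dendritic cells, neutrophils and T and NK cells. Macrophages held 13.6, 13.4, 8.84 and 9.10 times the monocyte level of their own library. In control dpi4, with 45 monocytes, the ratio was higher for Mfge8, at 23.7 (6.57 to 196) on 2 monocyte UMIs, against 8.84 (4.66 to 19.3) for Gas6. Pros1, the related protein S, did not separate the 3 myeloid types, with 14.2 to 42.6 CPM in macrophages, 21.8 to 26.0 in monocytes and 18.3 to 28.2 in dendritic cells. Mfge8, which links phosphatidylserine to alpha v integrins, ran from 14.2 to 164 CPM in macrophages, which overlapped dendritic cells (11.1 to 21.1 CPM), monocytes (4.74 to 34.1) and T and NK cells (6.25 to 19.3) but not neutrophils (1.67 to 8.07). The highest monocyte level, in KO dpi4, rests on 21 UMIs, 17 of them in 1 cell.

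**Figure D1:**
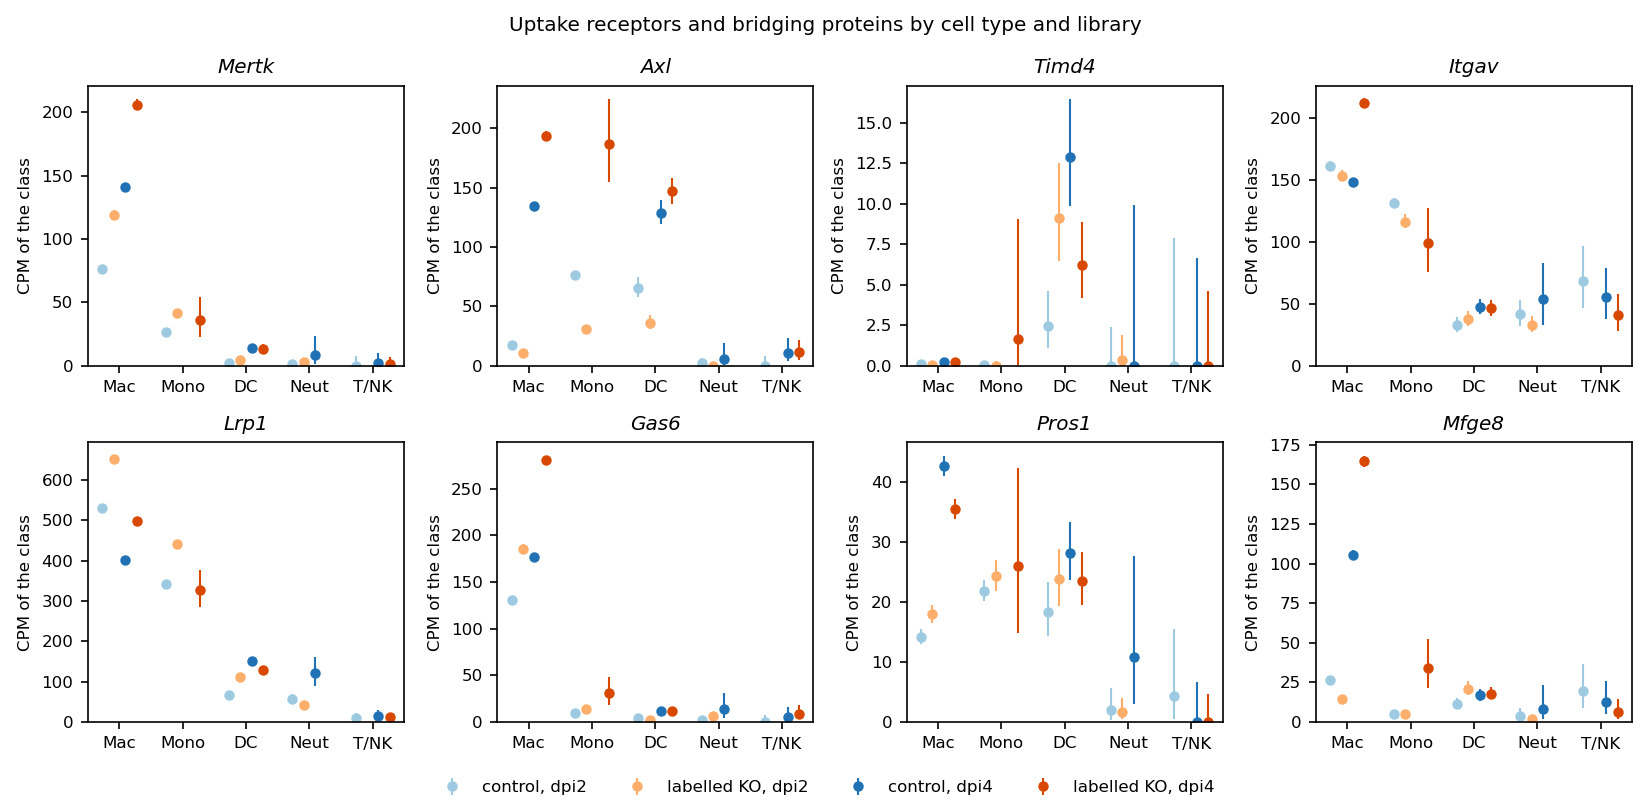
Level of each member (CPM of the class, linear axis from 0) in macrophages (Mac), monocytes (Mono), dendritic cells (DC), neutrophils (Neut) and T or NK cells (T/NK), 1 point per library with at least 50 cells of the class, bars showing 95% counting intervals. Mertk and Gas6 stand highest in macrophages in all 4 libraries, Timd4 in dendritic cells, and Axl in macrophages rises from 17.3 and 10.5 CPM at dpi2 to 134 and 193 at dpi4.

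Several members also had counts in the few cells of clusters named by fibroblast or endothelial markers, given here as pooled levels over the libraries. All 11 macrophage markers were found there too, at a median of 73.7% of the fibroblasts and 38.1% of the endothelial cells, so these levels are not free of macrophage transcripts. Fibroblasts (57 cells) had 144 CPM of Axl, 164 of Gas6, 115 of Mfge8 and 92.1 of Pros1, and endothelial cells (105 cells) had 218 CPM of Mfge8, 83.5 of Pros1 and 57.1 of Gas6. In macrophages, all 6 fibroblast markers had counts in each library, summing to 3.72, 2.63, 35.4 and 17.4 CPM in control dpi2, KO dpi2, control dpi4 and KO dpi4. The 5 endothelial markers summed to 20.1, 9.73, 11.7 and 11 CPM, and the 7 muscle markers to 6.70, 5.92, 44.9 and 28.9 CPM, with Pax7 at 0 at dpi2. Fibroblast and muscle transcripts therefore moved upward between dpi2 and dpi4 alongside Axl and Mfge8. In macrophages with no fibroblast or endothelial UMI, the log2 ratio of Axl between days was 3.14 in control and 4.23 in KO (2.95 and 4.20 in all macrophages), and that of Mfge8 was 1.65 and 3.70 (2.01 and 3.54).

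Between dpi2 and dpi4, Axl and Mfge8 rose past the size rule in macrophages of both genotypes and Pros1 in control, while Mertk, Gas6, Itgav and Lrp1 stayed within 2-fold. Of the 7 members with enough UMIs, 3 were higher past the size rule in control (9.63% of 11761 genes were) and 2 in KO (8.82% of 11441 genes), and none was lower (6.03% and 4.96%). An interval that leaves out 1 sets no gene apart here, since 76.7% of all genes had one in control and 74.5% in KO. The median log2 ratio over these members was 0.88 in control and 0.80 in KO, beside −0.07 and −0.05 over all genes tested. The cells compared are not the same in kind. In control dpi2, 62.3% of macrophages lay in a cluster led by Spp1 and Pdpn, in control dpi4 22.6% in one led by Hpgd and Apoe, and in KO dpi4 37.5% in one led by Slc40a1, Gdf15 and Spic.

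Axl had 17.3 CPM in control dpi2, 10.5 in KO dpi2, 134 in control dpi4 and 193 in KO dpi4 macrophages. The 4 levels differed from each other beyond counting error, and both dpi4 libraries stood above both dpi2 libraries. The rise was 7.75-fold (7.15 to 8.41) in control and 18.3-fold (16.4 to 20.6) in KO. Mfge8 had 26.2, 14.2, 106 and 164 CPM in the same order of libraries, a rise of 4.03-fold (3.77 to 4.32) in control and 11.6-fold (10.5 to 12.8) in KO. Without the few cells that held at least 20 Mfge8 UMIs (6, 3, 62 and 68 cells), it was 2.19-fold (2.01 to 2.38) and 5.03-fold (4.48 to 5.65). Both genes thus began lower and ended higher in the KO libraries.

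Pros1 had 14.2, 17.9, 42.6 and 35.4 CPM, which is 3.01-fold (2.74 to 3.31) in control and 1.98-fold (1.79 to 2.19) in KO, the latter just under the 2-fold limit. Mertk had 76.4, 119, 141 and 206 CPM, which is 1.84-fold (1.76 to 1.92) in control and 1.74-fold (1.67 to 1.80) in KO. Gas6 had 130.3, 185, 177 and 281 CPM, which is 1.36-fold (1.31 to 1.41) and 1.52-fold (1.47 to 1.56). Neither passed the size rule in either genotype. Itgav had 161, 153, 149 and 212 CPM, a ratio of 0.922 (0.892 to 0.953) in control and 1.38 (1.34 to 1.43) in KO. With monocytes and macrophages pooled, the control ratio was on the other side of 1 (log2 0.0026). Lrp1 had 531, 652, 402 and 498 CPM, with ratios of 0.757 (0.742 to 0.771) and 0.764 (0.749 to 0.779), not past the rule in either. Timd4, at 5, 2, 11 and 10 UMIs, could not be compared.

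Within the cycling Top2a cluster, the only one of macrophages other than the shallow Gm26917 cluster with at least 30 cells in all 4 libraries, Axl was 4.81 times (3.71 to 6.32) its dpi2 level at dpi4 in control and 4.82 times (3.55 to 6.66) in KO. Mertk was 1.84 times (1.57 to 2.16) and 3.16 times (2.48 to 4.09). Lrp1 was at 1.08 times (1.02 to 1.15) and 1.17 times (1.08 to 1.28), on the other side of 1 from the class, as was Gas6 at 0.675 times (0.610 to 0.747) and 0.945 times (0.824 to 1.09), the latter interval holding 1. Mfge8 was 6.38 times (5.07 to 8.12) and 15.3 times (11.6 to 20.6), and 3.41 and 6.06 times without cells of at least 20 of its UMIs. In the Gm26917 cluster, Lrp1 was at 0.590 times (0.418 to 0.828) and 0.627 times (0.442 to 0.889), on the same side as the class. The Fabp4 and Htr2b cluster, with 37 control cells at dpi4 against 1198 at dpi2, had Axl at 2.32 times (1.57 to 3.33) and Gas6 at 1.57 times (1.28 to 1.91). Mfge8 there was at 0.841 times (0.536 to 1.26), or 1.23 times (0.785 to 1.86) without cells of at least 20 of its UMIs, and Mertk at 1.05 times (0.814 to 1.33), so the ratios of the class were not seen in each cluster.

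Dendritic cells also had more of several receptors at dpi4. In control, 8 of 8 members had enough UMIs, each with an interval above 1 (44% of 8378 genes had an interval leaving out 1, in either direction), and 4 were higher past the size rule (4.13% of genes were). These were Mertk (1.89 to 13.7 CPM, 7.24-fold, 3.33 to 18.7), Timd4 (2.43 to 12.9 CPM, 5.30-fold, 2.62 to 12.1), Gas6 (4.04 to 12.2 CPM, 3.03-fold, 1.70 to 5.74) and Lrp1 (67.9 to 149.9 CPM, 2.21-fold, 1.91 to 2.56). The control dpi2 level of Gas6 rests on 15 UMIs, 14 of them in 1 cell. In KO, 3 of 8 were higher past the rule (4.19% of 8511 genes), namely Mertk (4.55 to 13.2 CPM, 2.90-fold, 1.72 to 5.13), Axl (36.2 to 147 CPM, 4.06-fold, 3.40 to 4.87) and Gas6 (2.16 to 12.2 CPM, 5.65-fold, 2.78 to 13). Axl in control dendritic cells, 65.5 and 129 CPM, was at 1.97-fold (1.69 to 2.29). The 11 macrophage markers summed to 801, 1321, 5762 and 3273 CPM in the dendritic cells of control dpi2, KO dpi2, control dpi4 and KO dpi4, and thus rose with Mertk and Gas6, and their part in these ratios was not tested.

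**Figure D2:**
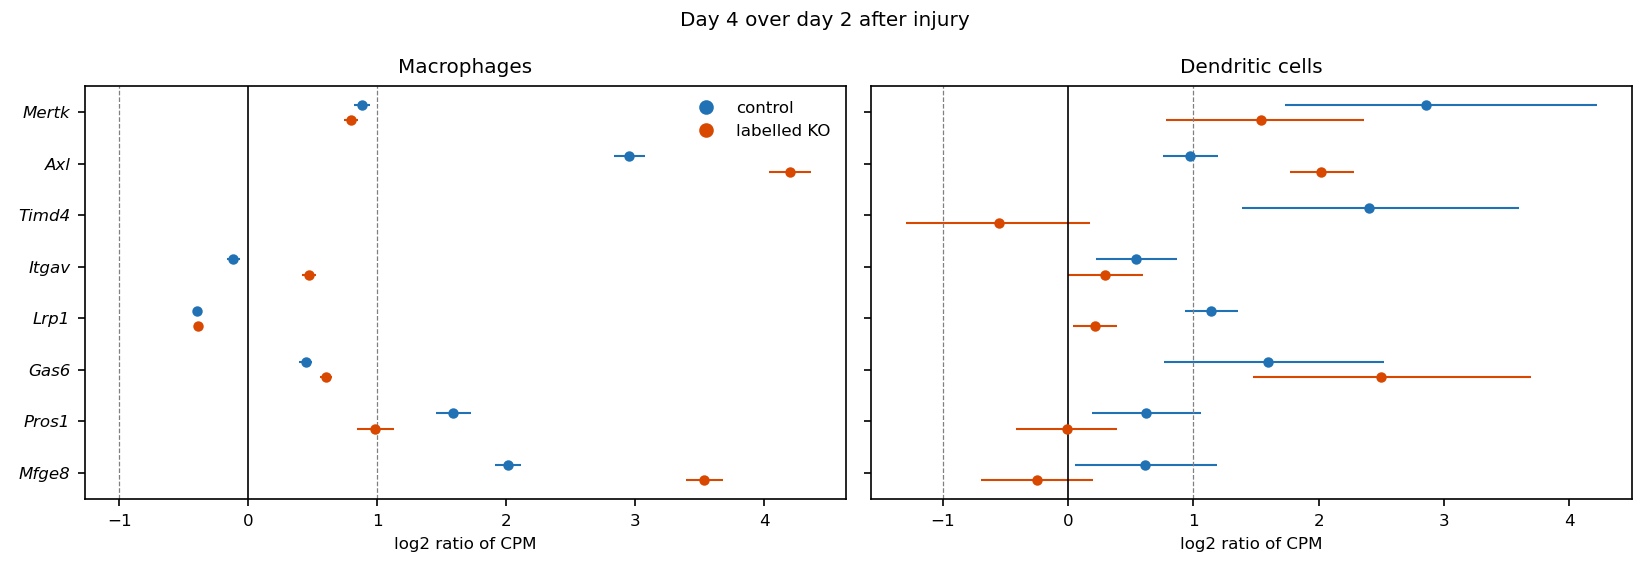
Ratio of each member's level at dpi4 to that at dpi2 (log2 axis) in macrophages and dendritic cells, for control and KO, with 95% counting intervals and dashed lines at 2-fold, for members with at least 50 UMIs in the pair. In macrophages, Axl and Mfge8 lie beyond 2-fold in both genotypes, further in KO (18.3-fold and 11.6-fold) than in control (7.75-fold and 4.03-fold).

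Monocytes were common at dpi2 (2607 and 987 cells) and scarce at dpi4 (45 and 71 cells). Axl had 76.3, 30.9, 138 and 187 CPM in control dpi2, KO dpi2, control dpi4 and KO dpi4 monocytes, so both dpi4 levels were above both dpi2 levels here too. Past the size rule at dpi4 over dpi2 was 1 of 7 members in control (Mertk, 26.9 and 75.7 CPM, 2.81-fold, 1.93 to 3.97, where 4.67% of genes were higher) and 3 of 7 in KO (5.8% of genes), namely Axl (6.05-fold, 4.88 to 7.45), Mfge8 (4.82 and 34.1 CPM, 7.08-fold, 4.12 to 11.7) and Gas6 (13.8 and 30.9 CPM, 2.23-fold, 1.32 to 3.58). The dpi4 levels rest on few counts, with 34 UMIs of Mertk in control and 21 of Mfge8 and 19 of Gas6 in KO. In KO dpi4, 1 cell held 17 of the 21 Mfge8 UMIs, and 1 cell held 10 of the 19 Gas6 UMIs. The 11 macrophage markers summed to 4690 and 12698 CPM in control monocytes of dpi2 and dpi4 and to 6030 and 11268 CPM in KO, and their part in these ratios was not tested. Neutrophils had enough UMIs for Itgav and Lrp1 alone between days, and Lrp1 was past the rule in both genotypes (56.6 and 121 CPM in control, 2.14-fold, 1.46 to 3.1, and 43.2 and 122 CPM in KO, 2.83-fold, 1.47 to 5.02), where 8.55% and 14% of genes were higher. The KO dpi4 level rests on 13 UMIs in 36 cells. With TMM factors, a scaling tried after seeing the data, both calls were lost, at 1.63-fold (1.11 to 2.36) in control and 1.69-fold (0.876 to 2.99) in KO. The macrophage markers in neutrophils rose alongside, from 806 to 3597 CPM in control and from 765 to 3658 in KO, and their part was not tested.

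Between genotypes, the macrophage ratios of the 7 members with enough UMIs stayed within 2-fold on both days. At dpi2, Mertk, Lrp1, Gas6 and Pros1 were higher in KO beyond counting error and Axl, Itgav and Mfge8 lower, while at dpi4 all but Pros1 and Timd4 were higher. Of 7 members with enough UMIs, 0 were past the size rule at dpi2 (2.25% of 11106 genes were higher and 2.22% lower) and 0 at dpi4 (0.962% and 1.37% of 11956 genes). All 7 intervals left out 1 on each day, beside 51.9% and 49.6% of all genes, and such intervals hold no difference between mice. The median log2 ratio of the 7 was 0.30 at dpi2 and 0.53 at dpi4, beside −0.02 and 0.02 over all genes.

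Mertk was higher in KO by 1.55 times (1.48 to 1.63) at dpi2 and 1.46 times (1.42 to 1.51) at dpi4. Its ligand Gas6 was higher by 1.42 times (1.37 to 1.48) and 1.58 times (1.54 to 1.63), and Lrp1 by 1.23 times (1.20 to 1.25) and 1.24 times (1.22 to 1.26). These 3 kept their direction between days, and the intervals of the days overlapped for Lrp1 and Mertk but not for Gas6. Axl was 0.609 times control (0.531 to 0.698) at dpi2 and 1.44 times (1.40 to 1.49) at dpi4, and Mfge8 was 0.541 times (0.481 to 0.607) and 1.56 times (1.5 to 1.61). Itgav was 0.951 times (0.915 to 0.988) at dpi2 and 1.43 times (1.39 to 1.47) at dpi4, and Pros1 1.27 times (1.12 to 1.43) and 0.832 times (0.781 to 0.886). With every cell thinned to 2000 UMIs, the dpi2 ratio of Itgav was on the other side of 1 (log2 0.02). Neutrophil markers in macrophages summed to 111 and 259 CPM at dpi2 and to 96.4 and 73.5 CPM at dpi4 (control, KO). Their part in the ratios of the members was not tested.

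In dpi2 monocytes, Axl was the 1 of 7 members past the size rule, at 76.3 CPM in control and 30.9 in KO, a ratio of 0.405 (0.364 to 0.449), where 2.59% of 10029 genes were lower and 1.78% higher. Mertk was at 26.9 and 41.5 CPM, a ratio of 1.54 (1.38 to 1.72), Lrp1 at 342 and 440.4 CPM, a ratio of 1.29 (1.25 to 1.33), and Gas6 at 9.62 and 13.8 CPM, a ratio of 1.44 (1.19 to 1.73). Mertk, Axl, Lrp1 and Gas6 thus lay on the same side of 1 as in macrophages of those 2 libraries, as did Itgav at 0.886 (0.836 to 0.940). Mfge8 did not, at 1.02 (0.747 to 1.37) in monocytes against 0.541 (0.481 to 0.607) in macrophages. Pros1 was at 1.11 (0.973 to 1.27), an interval holding 1. Without removal of predicted doublets the Gas6 ratio in monocytes fell below 1 (log2 −0.09). At dpi4, Mertk was lower in KO monocytes (75.7 and 35.7 CPM, a ratio of 0.472, 0.263 to 0.831), 1 of 4 members with enough UMIs (1.57% of 3246 genes were lower), which rests on 34 and 22 UMIs in 45 and 71 cells. Neutrophil markers summed to 218, 470.5, 134 and 56.9 CPM in monocytes, higher in KO at dpi2. The 11 macrophage markers there summed to 4690 and 6030 CPM at dpi2 and to 12698 and 11268 CPM at dpi4 (control, KO). They were thus higher in KO at dpi2 and lower at dpi4, as Mertk was. The part of either set of markers in these ratios was not tested.

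In dendritic cells the members past the rule were 0 of 5 at dpi2 (1.44% of 8058 genes were higher and 1.38% lower) and 1 of 8 at dpi4, Timd4, which was lower (0.781% of 8705 genes were). Timd4 had 9 and 38 UMIs at dpi2, under the minimum for the pair, and 21 of the 38 were in 1 KO cell. At dpi4 it had 63 and 30 UMIs, a ratio of 0.482 (0.301 to 0.756). That call was lost with a minimum of 200 UMIs, with libraries clustered one by one, with thinned cells and in cells with no fibroblast or endothelial UMI. Axl was at 65.5 and 36.2 CPM at dpi2, a ratio of 0.552 (0.448 to 0.679), and at 129 and 147 CPM at dpi4, a ratio of 1.14 (1.02 to 1.27). Clustering each library by itself turned both Axl directions (log2 0.68 and −0.37), so its direction in dendritic cells depended on how the libraries were clustered. The 11 macrophage markers in dendritic cells, at 801 and 1321 CPM at dpi2 and 5762 and 3273 CPM at dpi4 (control, KO), were higher in KO at dpi2 and lower at dpi4, and their part in these ratios was not tested. Within the Cd209a cluster Axl was at 74.7 and 42.4 CPM at dpi2, a ratio of 0.568 (0.457 to 0.704).

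**Figure D3:**
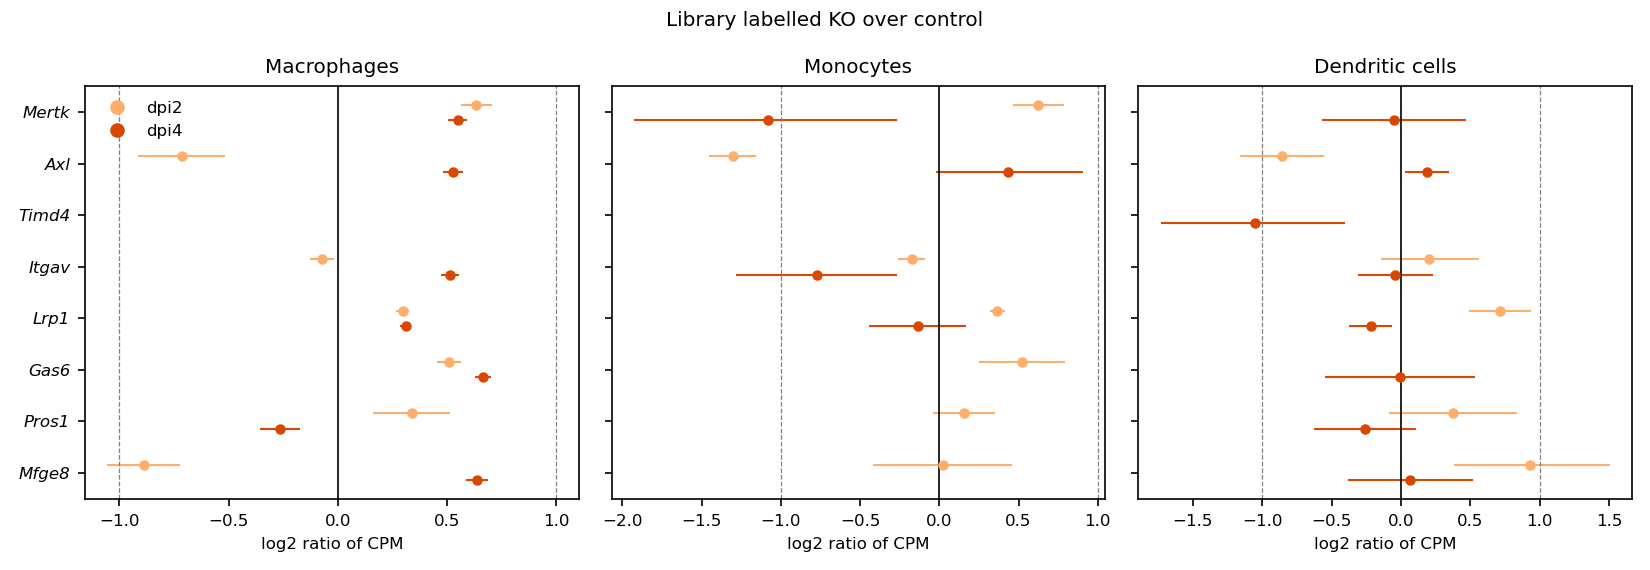
Ratio of each member's level in KO to that in control (log2 axis) at dpi2 and dpi4 in macrophages, monocytes and dendritic cells, with 95% counting intervals and dashed lines at 2-fold, for members with at least 50 UMIs in the pair. In macrophages, Mertk, Lrp1 and Gas6 lie right of 0 on both days and Axl and Mfge8 change side, while the dpi4 monocyte points rest on 45 control and 71 KO cells.

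Since the macrophage groups were made of different clusters, the members were also compared within 15 clusters of monocytes and macrophages, named here by their leading genes. The clustering did not use the members. Among clusters with at least 30 cells in both libraries of a pair, 3.63% of gene and cluster pairs were past the size rule between genotypes at dpi2 and 2.55% at dpi4. The share of such pairs with an interval leaving out 1 is not given, so counts of clusters by interval have no comparison. Over macrophages as a class that share was 51.9% of genes at dpi2 and 49.6% at dpi4. Axl was lower in KO at dpi2 with an interval below 1 in 6 of the 8 clusters with enough UMIs, above 1 in 1 (the cycling cluster led by Top2a, 13.2 and 19.5 CPM), and past the rule in 4. Of those 4, 3 were the cluster led by F10 (133 in control and 52.0 CPM in KO, 0.391 times), the Lyve1 cluster led by Ppbp (22.4 and 10.9 CPM, 0.489 times) and the S100a9 cluster (36.4 and 12.5 CPM, 0.345 times). At dpi4 it was above 1 in 6 of 7, from 0.973 in the Mmp12 cluster to 2.43 in the C4b cluster (75.3 and 183 CPM).

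Mfge8 did not follow its class ratio within clusters at dpi2. The class ratio was 0.541, and within 6 clusters with enough UMIs the ratio ran from 0.975 to 1.95, with a median of 1.10 and no interval that left out 1. In the Top2a cluster, 1 KO cell held 26 of 52 Mfge8 UMIs, and without it the ratio went from 1.35 to 0.689 (0.426 to 1.08). Its dpi2 level was 36.4 CPM in control and 40.4 in KO in the cluster led by Fabp4 and Htr2b, which held 1198 control cells and 131 KO cells. At dpi4, Mfge8 was higher in KO with an interval above 1 in 5 of 8 clusters and past the rule in 3. These were the Top2a cluster (102 and 332 CPM, 3.25 times, 2.93 to 3.60), the MHC class II cluster led by H2-Aa (44.6 and 97.1 CPM, 2.18 times, 1.92 to 2.46) and an unnamed cluster of shallow cells led by Gm26917 and Lars2 (58.4 and 360.2 CPM, 6.17 times, 3.56 to 11.3). These 3 calls rested on few cells. In KO, 10 of 146 Top2a cells held 1146 of 1392 Mfge8 UMIs, 3 of 267 H2-Aa cells held 289 of 363, and 1 of 81 Gm26917 cells held 42 of 75. Without cells of at least 20 Mfge8 UMIs in either library, a setting chosen after seeing the data, the ratios were 1.22 (1.02 to 1.46) in the Top2a cluster, 0.732 (0.566 to 0.935) in the H2-Aa cluster, on the other side of 1, and 3.1 (1.66 to 6.04) in the Gm26917 cluster, which then had 33 and 16 UMIs, under the minimum. In the Mmp12 and Gpnmb cluster, where the level was 302 CPM in control and 317 in KO, the ratio was 1.05 (1.002 to 1.10).

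Counted by intervals that left out 1, Mertk was higher in KO in 5 of 7 clusters at dpi2 and 6 of 7 at dpi4. It was lower in 1 on each day (Top2a at dpi2, 0.714 times, and H2-Aa at dpi4, 0.832 times), and past the rule in none. Over macrophages as a class, 51.9% of all genes had such an interval at dpi2 and 49.6% at dpi4. No such share within clusters is given here, so these counts set no member apart. Lrp1 was higher in 8 of 9 and 6 of 8 clusters and lower in 1 at dpi2 (Top2a, 0.899 times, 0.828 to 0.975). Gas6 was higher in 4 of 7 and 4 of 8, lower in 1 on each day (Top2a at dpi2, 0.757 times), and higher past the rule in 1 on each day, at dpi4 in the interferon-response cluster led by Iigp1 (116 and 267 CPM, 2.30 times, 2.07 to 2.56). At dpi4 it was lower in the H2-Aa cluster (138 and 101 CPM, 0.732 times, 0.656 to 0.816). Itgav was higher in 1 of 8 clusters and lower in 2 at dpi2, and higher in 5 of 7 at dpi4. Pros1 had an interval leaving out 1 in 2 of 8 clusters at dpi2, both higher, and in 1 of 7 at dpi4, lower.

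Over all cells, a pair of clusters differed in which bridging protein stood higher. Gas6 was highest in the cluster led by C4b and Ccl8, present at dpi4, at 604 CPM in control and 978 in KO, and there Mfge8 was at 14.5 and 12.7 CPM. In the Mmp12 and Gpnmb cluster of the same day, Gas6 was at 138 and 208 CPM while Mfge8 was at 302 and 317. That Mfge8 level rests on 42 control and 39 KO cells with at least 20 of its UMIs each, and without them it was 77.5 and 82.9 CPM, below Gas6. Pros1 followed Gas6 in the C4b cluster, at 89.9 and 97.9 CPM. The cluster led by Slc40a1, the iron exporter, and Vcam1 held 47 control and 920 KO cells at dpi4, with Mertk at 226 and 298 CPM, Axl at 147 and 258 CPM and Gas6 at 351 and 390.3 CPM. These clusters differ in the cell counts behind each value, and their sizes were not tested between genotypes.

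**Figure D4:**
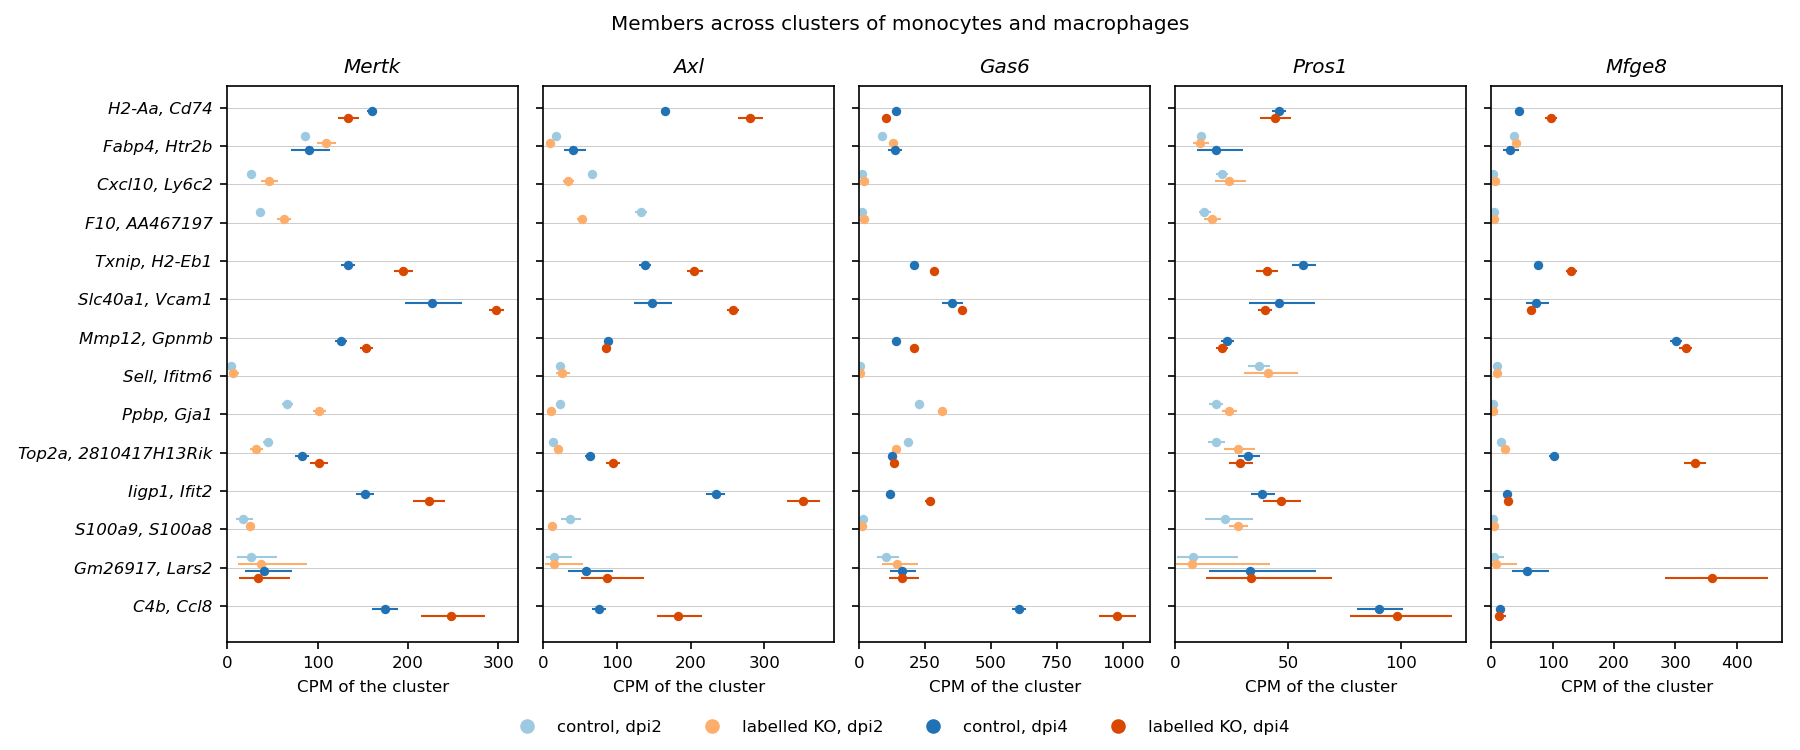
Level of Mertk, Axl, Gas6, Pros1 and Mfge8 (CPM of the cluster, linear axis from 0) in 14 of 15 clusters of monocytes and macrophages named by their first 2 leading genes, 1 point per library with at least 30 cells in the cluster, bars showing 95% counting intervals. Gas6 peaks in the C4b cluster (604 and 978 CPM) and Mfge8 in the Mmp12 cluster (302 and 317 CPM), with the Top2a cluster (332 CPM) and the unnamed Gm26917 cluster (360.2 CPM) above it in KO dpi4, levels that are 77.5 and 82.9, 66.8 and 181 CPM without cells of at least 20 Mfge8 UMIs.

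Shares of cells with a transcript were compared after each cell had been thinned to 2000 UMIs, since the libraries differed in depth. Mertk was detected in 13.3% of thinned macrophages in control dpi2, 21.1% in KO dpi2, 23.8% in control dpi4 and 34.3% in KO dpi4, and without thinning in 60.7%, 80.3%, 76.6% and 83.2%. Thinned T and NK cells had Mertk in 0 of 100, 0 of 36, 0 of 74 and 0 of 128 cells, with upper exact binomial limits of 3.62%, 9.74%, 4.86% and 2.84%. Their median depth before thinning was 3951 to 4962 UMIs, against 15336 to 26274 in macrophages. Axl was in 3.34%, 2.65%, 22.6% and 32.6% of thinned macrophages, and Gas6 in 16.6%, 23.7%, 25.6% and 39.1%. In thinned T and NK cells Axl was in 0%, 0%, 1.35% and 1.56% and Gas6 in 0%, 2.78%, 0% and 0.781%. The dpi2 shares of Axl in macrophages lay under the upper limits of these few lymphocytes (3.62% and 9.74%). In thinned dpi2 neutrophils, Axl was in 0.430% (0.0521% to 1.54%) of 465 control cells and in 0 of 771 KO cells (at most 0.477%). The dpi2 intervals of Axl in macrophages, 2.58% to 4.25% in control and 1.77% to 3.81% in KO, lay above those of neutrophils. The exact binomial intervals of control and KO at dpi4 did not overlap for Mertk (22.3% to 25.4% and 32.5% to 36.2%), Axl (21.1% to 24.2% and 30.8% to 34.5%) or Gas6 (24.0% to 27.2% and 37.1% to 41.0%). Thinning left out 55, 28, 83 and 73 macrophages under 2000 UMIs.

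The share of thinned macrophages with Mertk or Axl was 16.0%, 22.7%, 40.8% and 55.6% in the same order, and with both 0.583%, 1.04%, 5.63% and 11.4%. Gas6 together with one of these receptors was found in 3.92%, 6.92%, 10.3% and 22.4%. Gas6 was more frequent among macrophages with a Mertk UMI than among those without in each library, at 26.8% against 15.1%, 30.9% against 21.8%, 30.3% against 24.1% and 44.3% against 36.3%, with intervals that did not overlap in any of the 4. The share with Mfge8 among dpi4 macrophages with an Axl UMI and among those without was 5.25% against 7.41% in control, with overlapping intervals, and 6.21% (4.66% to 8.09%) against 10.9% (9.46% to 12.5%) in KO. Cells are not replicates, so these intervals say nothing of other mice. At least 1 of the 8 members was seen in 79.2%, 86.6%, 85.2% and 91.9% of thinned macrophages.

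Mfge8 was unevenly spread over macrophages on both days, the most so of the 7 members with enough UMIs in each library but KO dpi2, where Axl was. Timd4, with 2 to 11 UMIs per library, is left aside here. The top 10% of macrophages by Mfge8 count held 88%, 84.1%, 88.9% and 89.2% of its UMIs in control dpi2, KO dpi2, control dpi4 and KO dpi4, while the deepest 10% of cells held 21.3%, 20.5%, 23.7% and 24.4% of all UMIs. For Lrp1 the same share was 25.2%, 24.3%, 33.8% and 30.8%, and for Mertk 38.3%, 31.9%, 33.0% and 30.7%. Axl went from a skewed spread at dpi2 (78.5% and 89.1%) to a less skewed one at dpi4 (38.6% and 35.3%), as its level rose. Few counts alone give a skewed share. In 1941 and 1083 cells at dpi2, the Axl shares rest on 650 and 313 UMIs and the Mfge8 shares on 985 and 421. Mfge8 kept its skew at dpi4 with 5878 and 7576 UMIs in 3030 and 2590 cells.

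Macrophages with at least 20 Mfge8 UMIs numbered 6, 3, 62 and 68 in the same order of libraries, which is 0.309%, 0.277%, 2.05% and 2.63% of macrophages, and they held 28.2%, 19.95%, 62.6% and 67.2% of the Mfge8 UMIs. No Mfge8 UMI was found in 83.9%, 83.7%, 71.7% and 68.2% of macrophages. At dpi4, 42 of the 62 control cells and 39 of the 68 KO cells were in the Mmp12 and Gpnmb cluster, which is 10.0% and 9.80% of that cluster. The Top2a cluster held 6 and 10 more, and the Iigp1 and C4b clusters held none. These cells were deep, with a median of 36925 and 36050 UMIs against 16193.5 and 15336 over all macrophages of the library. Depth thus moved with the Mfge8 count, and its part in it was not tested.

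**Figure D5:**
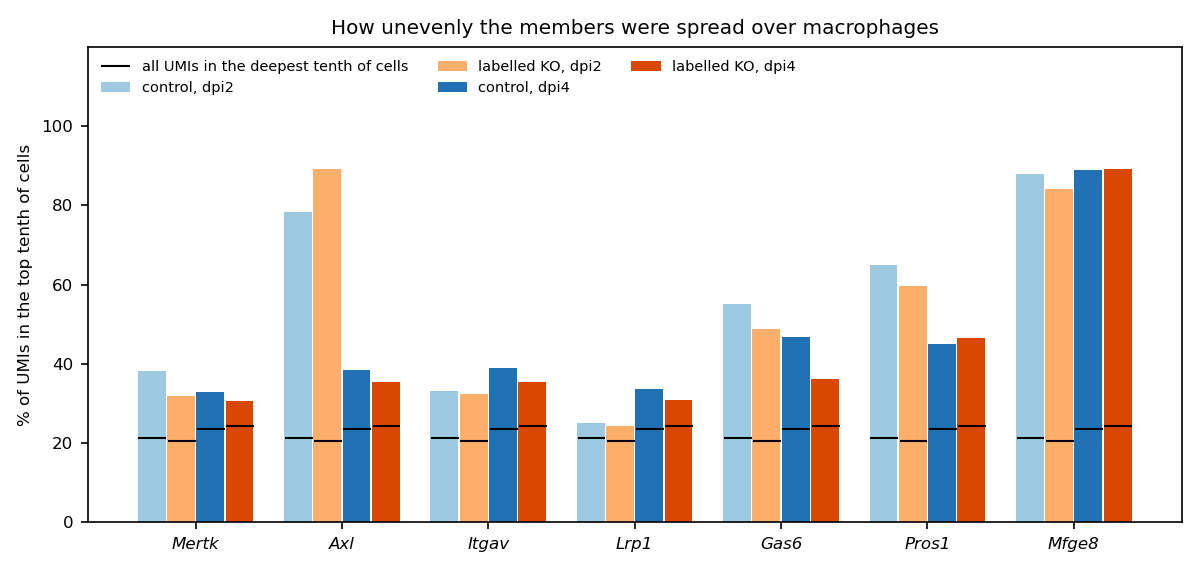
Share of each member's UMIs (percent, axis from 0) held by the top 10% of macrophages ranked by that member's count, 1 bar per library, with black lines at the share of all UMIs held by the deepest 10% of cells. Mfge8 stays between 84.1% and 89.2% in all 4 libraries, while Axl is at 78.5% and 89.1% at dpi2 and 38.6% and 35.3% at dpi4. The dpi2 shares rest on few UMIs (985 and 421 of Mfge8, 650 and 313 of Axl), which alone give a skewed share.

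The genes whose levels were most like each member's over 19 pairs of cell type and library (Pearson's r of log2(CPM + 1), among 10332 genes with at least 500 UMIs) were led by Fmn1 for Mertk (0.98), Ly86 for Axl (0.95), Gde1 for Itgav (0.97), Renbp for Lrp1 (0.98), Scamp5 for Gas6 (0.95), P2rx4 for Pros1 (0.98), Ing4 for Mfge8 (0.90) and Il12b for Timd4 (0.94). Igf1, the insulin-like growth factor made by repair macrophages, stood second for Gas6 (0.95), and Ccr7 and Ccl22, both markers of mature dendritic cells, followed for Timd4 (0.91 and 0.89). Among the members themselves, r was 0.91 between Gas6 and Mertk, 0.91 between Lrp1 and Mertk, 0.90 between Itgav and Mertk, 0.68 between Axl and Mertk and −0.15 between Timd4 and Mertk. The points come from the same 4 libraries and share their depth, so these values describe likeness of level and carry no test.

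Other genes for the uptake of dying cells, 65 genes in 7 groups, were compared in the same macrophages. At dpi2, 57 had enough UMIs, and 5 were higher in KO past the size rule and 0 lower (2.25% and 2.22% of all genes), with a median log2 ratio of 0.11 beside −0.02 over all genes. The highest were C3, the complement opsonin (8.17 in control and 27.2 CPM in KO, 3.33 times, 2.92 to 3.81), Socs3, a feedback inhibitor of cytokine signalling (29.8 and 82.8 CPM, 2.78 times, 2.59 to 2.98), Olr1, a scavenger receptor (7.96 and 21.1 CPM, 2.65 times, 2.31 to 3.06), and Cd14, a co-receptor for lipopolysaccharide that also binds dying cells (235 and 577 CPM, 2.46 times, 2.40 to 2.53). By group, the calls were 2 of 13 other uptake receptors, 1 of 4 other bridging proteins and opsonins, 1 of 9 find-me and do-not-eat-me signals and 1 of 4 shedding and feedback genes. The 8 engulfment genes, 10 phagosome genes and 9 sterol response genes with enough UMIs held none. Neutrophil markers summed to 111, 259, 96.4 and 73.5 CPM in the macrophages of control dpi2, KO dpi2, control dpi4 and KO dpi4, and their part in these ratios was not tested.

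At dpi4, 59 of the 65 had enough UMIs, with 1 higher in KO, S1pr1, a receptor for the find-me lipid sphingosine 1-phosphate (25.8 and 58.1 CPM, 2.25 times, 2.11 to 2.40), and 1 lower, Socs3 (131 and 59.9 CPM, 0.458 times, 0.438 to 0.479), and a median log2 ratio of 0.08 beside 0.02 over all genes, of which 0.962% were higher and 1.37% lower. Socs3 thus stood on opposite sides of 1 on the 2 days. Between days, 10 of 59 were higher and 5 lower in control (9.63% and 6.03% of all genes), with a median log2 ratio of 0.20 beside −0.07 over all genes. In KO, 6 were higher and 5 lower (8.82% and 4.96% of all genes), with a median of 0.13 beside −0.05.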

How the data were processed

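Leukocytes of injured tibialis anterior muscle were profiled by droplet single-cell RNA-seq, 1 library per genotype and day. The authors deposited raw UMI counts per gene and barcode, made with Cell Ranger 6.1.2 on mm10 per the submitters' processing notes, and each file listed barcodes from 500 UMIs upward. The labels name the 3′ v2 kit and the study's methods v3.1. No per-sample column was left unused.

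From these counts, barcodes with under 500 genes or at least 10% mitochondrial counts were removed, then the top Scrublet doublet scores at 0.8% per 1000 cells. Kept cells were normalised to 10000 counts and clustered (scanpy 1.11.5, 2000 variable genes, 30 components, 15 neighbours, Leiden resolution 1). Members, other uptake genes, Lyz1 and Lyz2 (75 genes) were kept out of the variable genes. Of 92 cell type markers 89 matched. A cluster was named from at least 3 detected markers of a type, and names are rebuilt here, not the study's annotation. Values of 1 cluster of macrophages are not reported here, and it remains in the counts over clusters. Counts were summed per cell type and library. Intervals and the limit of 3 counts for a count of 0 cover counting error only. Cells are not replicates, so the study's test over cells was not used. The sums and intervals were tested on simulated data.

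Named genes were all 8 members and, of 65 other uptake genes, up to 4 highest and 4 lowest past the size rule between genotypes in macrophages. The 3 most alike genes per member were ranked by Pearson's r. Alternatives were TMM factors (edgeR 4.0.16), other filters, clusterings, thresholds, thinning, pooled monocytes and macrophages, and cells with no fibroblast or endothelial UMI. Members and lists were chosen with earlier results of these data known. Promoters came from a RefSeq table (8 of 8 members matched), and proteins were not used here.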

Additional observations from a re-analysis of the deposited data

Results flagged for a closer look

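The results below had intervals on opposite sides of 1 under the same contrast in 2 settings. The difference between the settings was not tested in any of them, since each group was 1 library. Values are log2 ratios.

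In macrophages, KO over control was −0.71 at dpi2 and 0.53 at dpi4 for Axl and −0.89 and 0.64 for Mfge8. For Itgav it was −0.073 and 0.51, and for Pros1, in the other order, 0.34 and −0.27. Itgav also changed side between genotypes, with dpi4 over dpi2 at −0.12 in control and 0.47 in KO. The control value was 0.0026 with monocytes and macrophages pooled, and the dpi2 genotype value was 0.016 with thinned cells. In monocytes, KO over control of Mertk was 0.63 at dpi2 and −1.08 at dpi4, the latter in 45 control and 71 KO cells. In dendritic cells it was −0.86 and 0.19 for Axl and 0.71 and −0.22 for Lrp1. Both Axl values there turned when libraries were clustered one by one (0.68 and −0.37), and the dpi4 value of Lrp1 turned without doublet removal (0.0088) and with thinning (0.092).

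Within clusters, the Axl ratio lay below 1 beyond counting error in 6 of 8 clusters at dpi2 and above 1 in 6 of 7 at dpi4, but the clusters differed between days. The Top2a cluster alone had enough Axl UMIs on both days, and its ratio was 1.48 on each, with no change of side. For Mfge8, 0 of 6 clusters lay below 1 beyond counting error at dpi2. The share of all genes with such intervals within clusters is not given, so these counts have no comparison.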

How the results depend on the processing

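No paired analysis was possible because each group was 1 library, and for the same reason no replicate could be left out. Over 48 log2 ratios and 515 alternative values, 426 stayed within the counting interval of the reported value, 82 moved outside it, and 7 whose interval left out 1 changed side. Most shifts came from 2 settings, with thinning to 2000 UMIs moving or turning 27 of 48 and pooling monocytes with macrophages 21 of 35. Ratios between days in monocytes and dendritic cells, and between genotypes in dpi4 monocytes, were not among the 48. The 7 were Itgav in macrophages, KO over control at dpi2, at 0.016 with cells thinned to 2000 UMIs, and control dpi4 over dpi2 at 0.0026 with monocytes and macrophages pooled. Axl in dendritic cells, KO over control, was 0.68 (dpi2) and −0.37 (dpi4) when libraries were clustered one by one. Lrp1 in dendritic cells at dpi4 was 0.0088 without doublet removal and 0.092 with thinning, and Gas6 in monocytes at dpi2 was −0.089 without doublet removal. The cause was not tested.

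Counts of members past the size rule moved as follows. The share of all genes past each altered rule or setting is not given, so these counts have no comparison. With a 1.5-fold limit, KO over control gave 3 in macrophages at dpi2 (Axl, Mertk, Mfge8), 2 at dpi4 (Gas6, Mfge8), 2 in monocytes at dpi2 (Axl, Mertk) and 3 in dendritic cells at dpi2 (Axl, Lrp1, Mfge8), and dpi4 over dpi2 in KO macrophages gave 5. With monocytes and macrophages pooled, the counts were 1 (Axl) for the genotypes at dpi2, 5 between days in control and 4 in KO. In cells with no fibroblast or endothelial UMI, 1 member (Mfge8, log2 ratio 1.09) was past the rule in dpi4 macrophages and 0 in dpi4 dendritic cells. In dendritic cells at dpi2, 1 member was past it with no minimum of UMIs (Timd4), 1 at Leiden resolution 2 (Axl), 1 without the highest cell of each member (Axl, log2 ratio −1.06) and 4 with each library clustered by itself (Gas6, Lrp1, Mfge8, Pros1). In dendritic cells at dpi4 the count was 0 with a minimum of 200 UMIs, with each library clustered by itself and with thinning. Leaving out the highest cell was chosen after seeing the data, kept all 48 ratios within their intervals, and put Pros1 past the rule between days in KO macrophages (log2 ratio 1.02). Leaving out cells with at least 20 Mfge8 UMIs, also chosen after seeing the data, turned the KO over control log2 ratio of Mfge8 in the H2-Aa cluster at dpi4 to −0.45. The ratio also went from 0.891 to 1.43 in the Slc40a1 cluster at dpi4 and from 1.35 to 0.689 in the Top2a cluster at dpi2, and between days in the control Fabp4 cluster from 0.841 to 1.23. TMM factors in monocytes, dendritic cells and neutrophils between days, tried last, ended the calls of Lrp1 in neutrophils (1.63-fold and 1.69-fold) and no other. Timd4, with 28 UMIs in all macrophages, could not be compared there.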

Other observations

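A cluster of 378 cells, 311 of them in control dpi4 and 66 in KO dpi4, was led by the muscle transcripts Acta1 and Mylpf and also held all 11 macrophage markers, each in at least 68.3% of its cells. Of the report's comparisons it entered the likeness of levels alone, as part of the muscle cells. Axl there was at 195 CPM in control and 349 in KO, which is 1.45 times (1.36 to 1.54) and 1.81 times (1.62 to 2.01) the level in macrophages of the same library. Mertk was at 158 and 247 CPM, which is 1.12 times (1.05 to 1.20) and 1.20 times (1.05 to 1.36). Gas6 was lower there in both libraries, at 145 and 215 CPM, 0.821 times (0.765 to 0.879) and 0.766 times (0.669 to 0.874). Mfge8 was at 97.6 and 51.6 CPM, 0.924 times (0.848 to 1.005) and 0.314 times (0.236 to 0.410), the interval in control holding 1. The intervals cover counting error only.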
